A study of Homo sapiens with 24 samples.

Results

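The response of ES2 cells to luteolin was set against their response to an siRNA that lowers VRK1, gene by gene. ES2 is a human ovarian cancer cell line. Its 12 libraries, of 24 in the series, fall by their titles into 4 groups of 3: a control siRNA (siCont), an siRNA that targets VRK1 (siVRK1), DMSO as the solvent, and luteolin (spelled luteoline in the column names of the deposited table). The quantity of interest is the luteolin effect (luteolin minus DMSO) minus the siRNA effect (siVRK1 minus siCont). The other 12 libraries hold the same 4 treatments in A2780, another ovarian cancer line, and serve only for the comparison of lines at the end. All 4 ES2 groups are cultures of 1 established line. The sources used here give neither the dose of luteolin, nor the sequence and number of siRNAs, nor the treatment times, and nothing in the labels ties the 3 libraries of a group to separate cultures. The p-values therefore measure only the spread between these libraries, which can be technical.

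VRK1 is a nuclear serine/threonine kinase. It is known to phosphorylate chromatin and nuclear envelope proteins, among them BANF1, whose phosphorylation frees DNA from the envelope at mitosis, and transcription factors such as p53, JUN and ATF2. It is made mainly in proliferating cells. Luteolin is a flavone found in many plants, and flavones bind the ATP pocket of a range of kinases. An siRNA removes an mRNA while a kinase inhibitor acts on the protein, so the mRNA level of VRK1 does not report inhibition, and the comparison rests on the other genes.

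Levels are TPM (transcripts per 1000000), summed over the transcripts of a gene, and effects are differences of log2(TPM + 1) with their standard errors. The TPM of a library add to 1000000, so they keep no record of sequencing depth, which is unknown. Between 11792 and 12190 genes reached 1 TPM in an ES2 library. Across genes, log2 levels correlated at 0.990 to 0.993 within a group and at 0.943 to 0.975 between groups. Of 15 ovarian carcinoma and epithelial markers, 5 to 7 reached 1 TPM in a group. Keratins dominated them, with KRT7 at 334 to 486 TPM by group, while PAX8 and WT1, lineage factors of the ovary and Müllerian tract, stayed at 0.766 to 2.34 TPM. The endothelial genes TIE1 (95.4 to 152 TPM) and CDH5 and the macrophage gene CD68 were expressed in all 4 groups, whereas summed erythroid markers stayed at or below 1.15 TPM. The 13 mitochondrial mRNAs took 7.78% ± 0.79 (SD, n = 3) of the TPM with luteolin against 4.57% ± 0.56 with DMSO, and 5.24% ± 0.33 with siVRK1 against 5.39% ± 0.18 with siCont. Without them, luteolin raised 3345 genes and lowered 2765, against 2826 and 3228 with them.

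VRK1 itself separated the treatments. In the siCont libraries it stood at 65.5, 66.2 and 62.1 TPM. In the siVRK1 libraries it stood at 4.08, 4.20 and 2.92 TPM (a log2 effect of −3.80 ± 0.11, adjusted p = 6.94e-11 in limma's test). With DMSO it was 57.2, 60.1 and 63.6 TPM and with luteolin 62.8, 53.8 and 67.9 TPM, so the groups overlapped and the effect of 0.02 ± 0.11 did not pass the test (95% interval −0.21 to 0.25, adjusted p = 0.881). The siRNA groups did not overlap, and all 3 siVRK1 libraries match their label. VRK2, a membrane-bound relative, fell with both treatments (28.5 to 22.4 TPM with the siRNA, 21.5 to 16.3 TPM with luteolin). VRK3, a relative whose kinase domain is largely inactive, rose with luteolin (0.42 ± 0.07) and fell with siVRK1 (−0.24 ± 0.07), a call lost without siCont library 3 (−0.20) or siVRK1 library 3 (−0.18).

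Both treatments moved about as many genes, and they were mostly different genes or moved in different directions. Of 12507 genes tested, luteolin raised 2826 (22.6%) and lowered 3228 (25.8%), and siVRK1 raised 3351 (26.8%) and lowered 3505 (28%). Changes of at least 2-fold were fewer, at 306 higher and 147 lower with luteolin and 343 higher and 466 lower with siVRK1. The effects differed from each other in 3233 genes in favour of luteolin (25.8%) and in 3252 in favour of siVRK1 (26%). The median effect of all genes lay at −0.00 for either treatment.

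A total of 3680 genes passed the test with both treatments. Of these, 2101 (57.1%) moved in the same direction, 865 upward and 1236 downward, and 1579 (42.9%) moved in opposite directions. The 865 shared rises are 30.6% of the genes raised by luteolin and 25.8% of those raised by siVRK1, and the 1236 shared falls are 38.3% and 35.3% of the genes lowered. Set against all genes tested, 30.6% of luteolin's rises compare with 26.8% raised by siVRK1, and 38.3% of its falls compare with 28% lowered by siVRK1. Genes that rose with luteolin and fell with siVRK1 numbered 693, and 886 fell with luteolin and rose with siVRK1. A further 1562 genes responded to luteolin alone and 2265 to siVRK1 alone, counting only genes whose difference of effects also passed the test. Across all 12507 genes the luteolin and siRNA effects, which share no library, correlated at r = 0.07, and at 0.12 over the 3680 genes called with both. These are descriptions, since genes are not independent replicates.

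**Figure D1:**
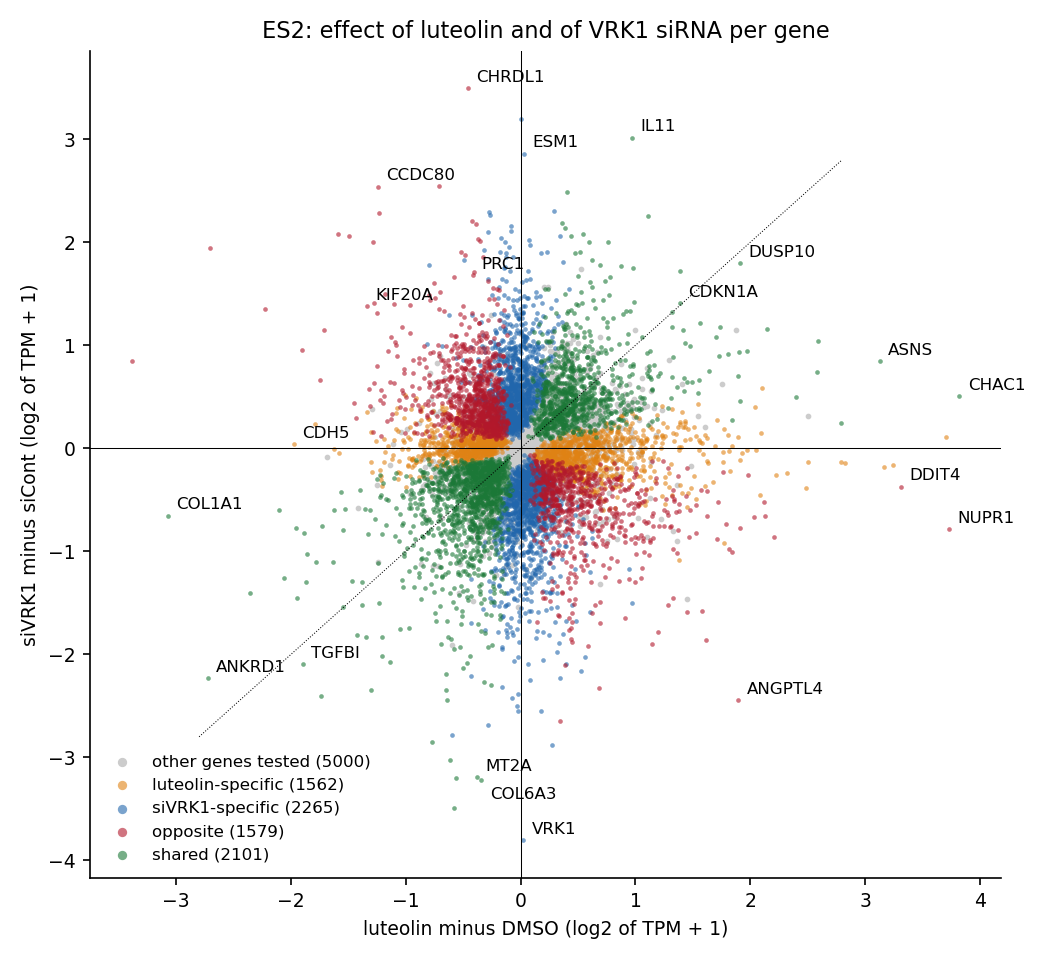
Effect of luteolin (x axis, log2 of TPM + 1, luteolin minus DMSO) against effect of siVRK1 (y axis, siVRK1 minus siCont) for the 12507 genes tested in ES2, coloured by class, with a dotted line where both effects are equal. The points fill all 4 quadrants and few lie far out along the dotted line.

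Among the larger responses the picture was similar. Of 343 genes that rose at least 2-fold with siVRK1, 91 (26.5%) rose and 83 (24.2%) fell with luteolin. The 466 genes that fell at least 2-fold with siVRK1 leaned more to the same side, with 162 (34.8%) lower and 83 (17.8%) higher with luteolin. Of the 306 genes that luteolin raised at least 2-fold, 67 (21.9%) rose and 87 (28.4%) fell with siVRK1. Of the 147 genes that luteolin lowered at least 2-fold, 61 (41.5%) fell and 47 (32.0%) rose with siVRK1. Only 14 genes rose and 27 fell at least 2-fold with both, while 15 and 17 did so in opposite directions.

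Among the largest shared rises were a brake on cell division and a phosphatase of MAP kinases. CDKN1A encodes the CDK inhibitor p21. It went from 5.0, 4.89 and 4.71 TPM with siCont to 15.7, 14.8 and 13.3 TPM with siVRK1, and from 3.29, 3.75 and 3.46 TPM with DMSO to 12.2, 7.55 and 13.5 TPM with luteolin. Treated and control libraries did not overlap in either pair, and the effects (1.41 ± 0.16 and 1.39 ± 0.16) differed by −0.02 ± 0.22. DUSP10, a phosphatase of p38 and JNK, rose from 4.26 to 17.3 TPM with siVRK1 (1.80 ± 0.21) and from 2.66 to 13.3 TPM with luteolin (1.91 ± 0.21). In both genes luteolin library 2 was the lowest of its group, as it was for FOS, ATF3, DDIT3 and JUNB below. The kinase gene CAMK1G (1.39 ± 0.11 with luteolin, 1.72 ± 0.11 with siVRK1) and the DUSP5 phosphatase of nuclear ERK (1.12 ± 0.12 and 0.76 ± 0.12) also rose with both. For CAMK1G the DMSO level (18.9 TPM) already lay above the siVRK1 level (11.75 TPM), with siCont at 2.91 TPM. The stromelysin MMP3 rose more with siVRK1 (2.25 ± 0.11) than with luteolin (1.11 ± 0.11), and so did the cytokine IL11 (3.02 ± 0.29 and 0.97 ± 0.29), whose luteolin call was lost without luteolin library 1 (0.85) or 3 (0.64).

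The shared falls included secreted and cytoskeletal proteins. ANKRD1, a nuclear ankyrin-repeat protein and known YAP target, fell from 680, 672 and 667 TPM to 140, 150 and 138 TPM with siVRK1, and from 98.7, 111 and 105 TPM to 14.9, 16.2 and 13.9 TPM with luteolin. Each drop is several times any spread between replicates, but the DMSO level already lay below the siVRK1 level. TGFBI, a matrix protein induced by TGF-beta, went from 297 to 69.0 TPM (−2.09 ± 0.07) and from 63.6 to 16.4 TPM (−1.90 ± 0.07), again with DMSO near the siVRK1 level. Other large shared falls were the scaffold gene CARD10 (−1.38 ± 0.07 with luteolin, −1.52 ± 0.07 with siVRK1), the NAD-synthesis gene NMNAT2 (−1.95 ± 0.12 and −1.45 ± 0.12), the growth factor NRG1 (−1.47 ± 0.14 and −1.29 ± 0.14) and the keratin KRT18 (−1.02 ± 0.04 and −1.02 ± 0.04).

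**Figure D2:**
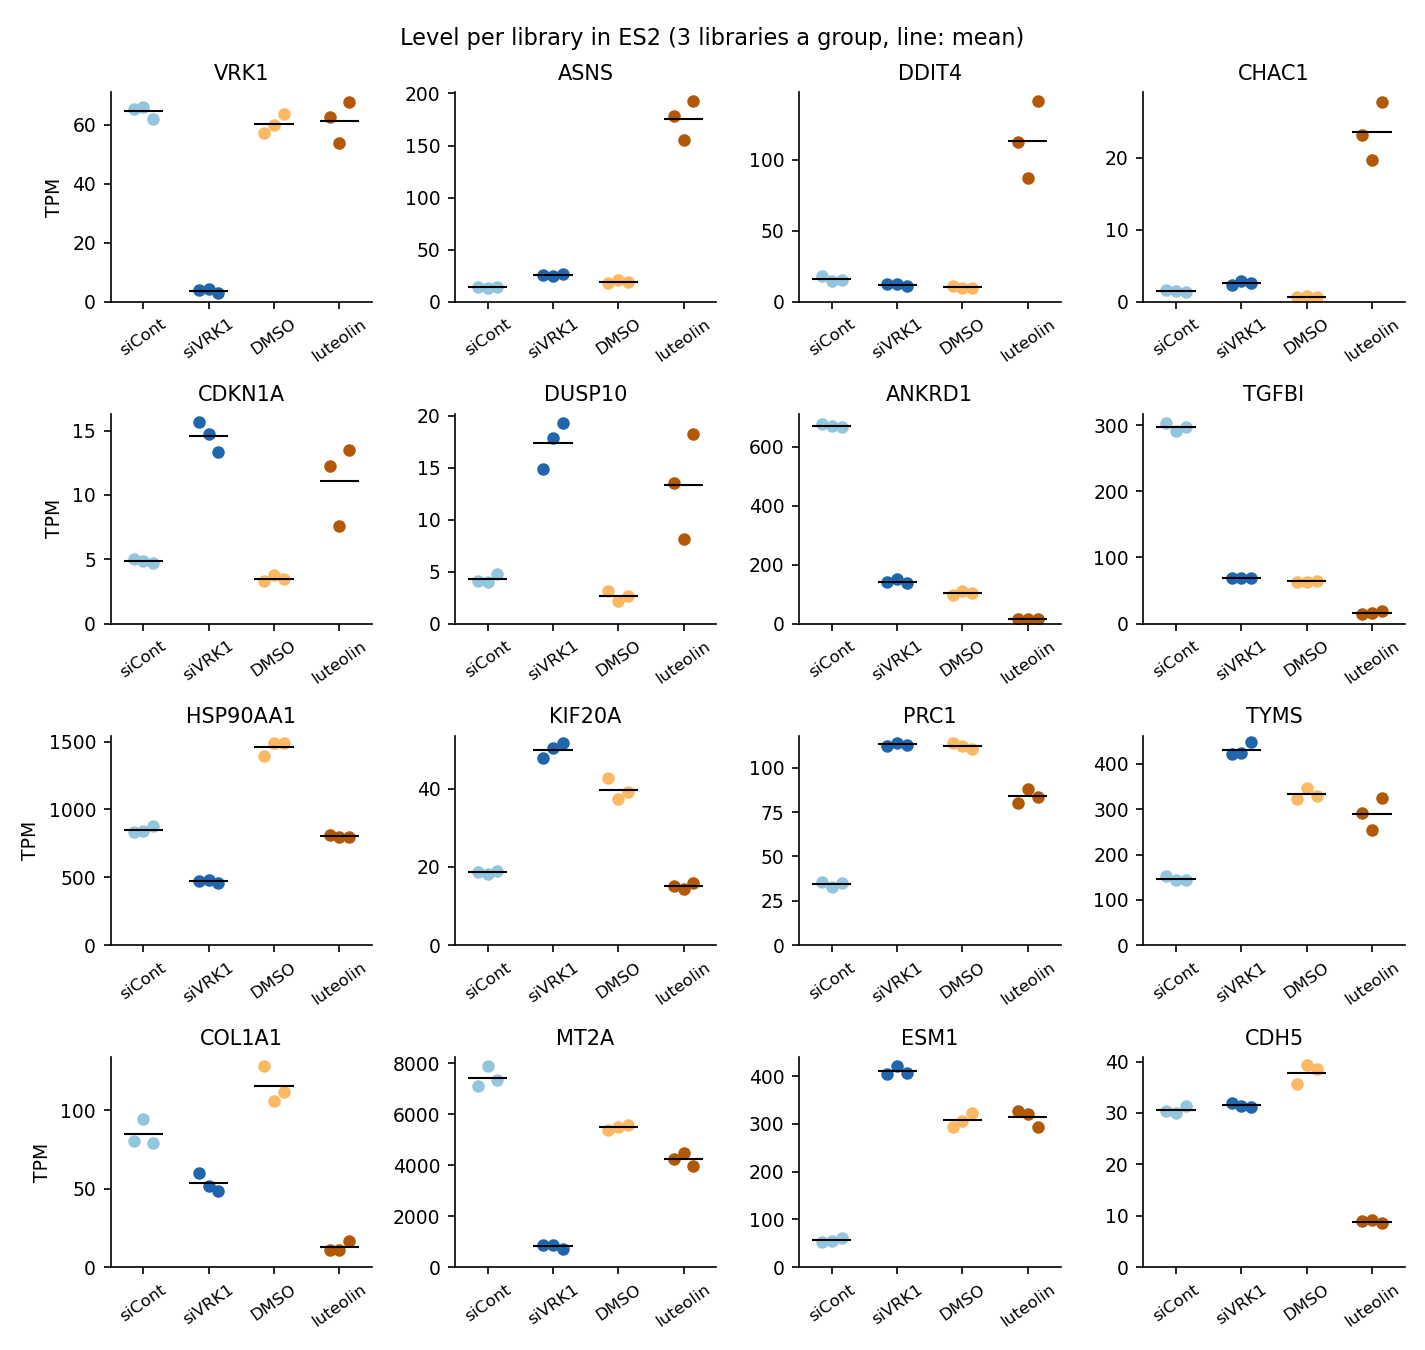
TPM of 16 genes in each of the 12 ES2 libraries (points, 3 a group, with the group mean as a line; each y axis starts at 0 TPM). VRK1 is low only in siVRK1, CDKN1A and DUSP10 are high with both treatments, KIF20A moves in opposite directions, and for ANKRD1, TGFBI, PRC1 and ESM1 the DMSO level lies near siVRK1 rather than siCont.

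The widest gap between the treatments over a list, a median difference of 1.53, lay in the integrated stress response. This pathway is known to act through ATF4, a transcription factor made when the initiation factor eIF2 is phosphorylated, and its targets import and make amino acids, charge tRNAs, restrain mTORC1 and, at length, promote cell death. Luteolin raised all 34 tested members of the list of ATF4 targets (median 1.45), and siVRK1 raised 9 and lowered 13 (median 0.05). Over all genes, luteolin raised 22.6%, and siVRK1 raised 26.8% and lowered 28%. The 9 rises with siVRK1 lie near that share and do not set the list apart. The difference of effects was positive and past the test in all 34, against 25.8% of all genes. By class, 13 members moved in opposite directions, 12 responded to luteolin alone and 9 rose with both, though more with luteolin.

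Among the synthesis enzymes, ASNS, asparagine synthetase, went from 18.0, 20.6 and 18.7 TPM with DMSO to 178, 155 and 192 TPM with luteolin (3.13 ± 0.08, adjusted p = 7.75e-11), and from 14.1, 13.2 and 14.1 to 25.5, 24.6 and 26.8 TPM with siVRK1 (0.84 ± 0.08). PHGDH, the first enzyme of serine synthesis, likewise rose with both (1.48 ± 0.05 and 1.0 ± 0.05). Its DMSO level (219.5 TPM) already lay above its siVRK1 level (174.6 TPM), with siCont at 87.2 TPM. ASNS and PHGDH are among the 9 members that rose with both treatments. CARS1, which charges cysteine tRNA, went the opposite way in the siRNA arm, up from 29.1 to 64.2 TPM with luteolin (1.12 ± 0.05) and down from 40.4 to 19.2 TPM with siVRK1 (−1.04 ± 0.05).

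With siVRK1, ATF4 and further genes of the stress response fell, did not pass the test or rose far less than with luteolin. ATF4 mRNA rose with luteolin (0.98 ± 0.07) and fell with siVRK1 (−0.28 ± 0.07), a fall that lost its call under quantile normalization (−0.20, adjusted p = 0.0582). DDIT4, an inhibitor of mTORC1, went from 11.3, 9.95 and 9.63 TPM with DMSO to 112, 86.9 and 141 TPM with luteolin (3.32 ± 0.14), and from 15.9 to 12.1 TPM with siVRK1 (−0.37 ± 0.14, adjusted p = 0.0403). That fall lost its call without luteolin library 1 (−0.37) and without siCont library 1 (−0.29) or 3 (−0.41) or any siVRK1 library (−0.32 to −0.41), with a pseudocount of 5 (−0.29) and with no filter (adjusted p = 0.0907). CHAC1, which breaks down glutathione, rose from 0.72 to 23.5 TPM with luteolin (3.82 ± 0.12) and from 1.51 to 2.57 TPM with siVRK1 (0.51 ± 0.12). The small stress protein NUPR1 rose from 1.27 to 28.9 TPM with luteolin and fell from 2.46 to 1.03 TPM with siVRK1 (−0.78 ± 0.21). This gave the most positive difference of the named genes (4.51 ± 0.30, adjusted p = 1.51e-07 in limma's test). The levels in the siRNA arm lie near the filter of 1 TPM. DDIT3, which encodes the death-promoting factor CHOP, stood at 10.2, 10.4 and 13.7 TPM with DMSO and at 91.6, 57.8 and 113 TPM with luteolin (2.79 ± 0.19). With siVRK1 its effect was −0.13 ± 0.19 and did not pass the test. ATF3 (2.83 ± 0.44 with luteolin) and the cytokine GDF15 (3.70 ± 0.20) were likewise called with luteolin alone.

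Promoters of the list were read for the core of the C/EBP-ATF element, TGATGNAA on either strand, in the 250 bases before each transcription start (RefSeq, GRCh38.p14). It was present in 4 of 29 members with a promoter in the table (13.8%), against 3.19% of 27305 promoters of all genes and 1.39% of the 9768 promoters of genes tested. DDIT4 and DDIT3, with differences of 3.69 and 2.92, had no match, so members with a wide contrast include some without it. Among the members with a match, the 3 with the most positive difference are shown. Each is a stretch of 120 bases, 5′ to 3′ on the strand of the gene, with the match in capitals.
CHAC1: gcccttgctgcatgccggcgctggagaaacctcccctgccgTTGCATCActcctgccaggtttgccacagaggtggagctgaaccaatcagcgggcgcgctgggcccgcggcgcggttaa
ATF3: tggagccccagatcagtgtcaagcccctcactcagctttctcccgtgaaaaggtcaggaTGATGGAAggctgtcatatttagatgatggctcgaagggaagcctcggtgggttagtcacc
ASNS: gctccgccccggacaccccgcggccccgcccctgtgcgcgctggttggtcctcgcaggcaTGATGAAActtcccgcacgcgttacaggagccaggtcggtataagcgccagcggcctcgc
The stretches lie at chr15:40953221-40953340 (CHAC1, plus strand), chr1:212565157-212565276 (ATF3, plus strand) and chr7:97872417-97872536 (ASNS, minus strand), and the matches begin at −209, −191 and −68 from the start. A match describes the letters and does not show binding.

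**Figure D3:**
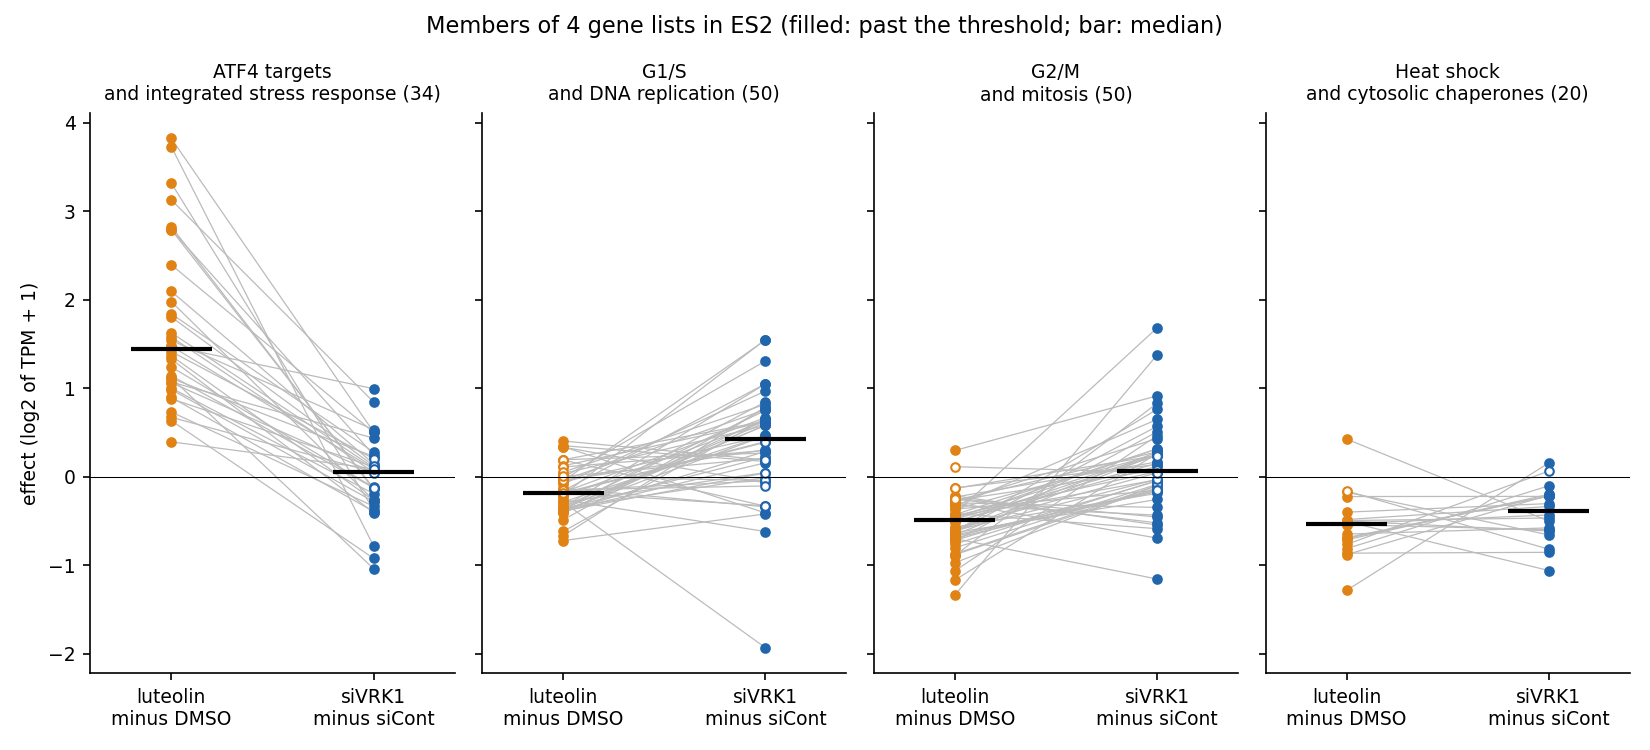
Effects of luteolin and of siVRK1 (y axis, log2 of TPM + 1) for the tested members of 4 gene lists in ES2, with a line joining the 2 effects of each gene, filled points for effects past the threshold and a bar at the median. All 34 ATF4 targets are high with luteolin and near 0 on average with siVRK1, G1/S and G2/M genes lie lower with luteolin than with siVRK1, and heat shock genes are low with both.

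Genes of the cell cycle moved apart. Of 50 tested G1/S and DNA replication genes, luteolin lowered 26 and raised 5 (median −0.18), while siVRK1 raised 32 and lowered 6 (median 0.43). In 34 of the 50 the difference was negative and past the test, and in 5 positive. Of 50 G2/M and mitosis genes, luteolin lowered 45 and raised 1 (median −0.49), while siVRK1 raised 23 and lowered 12 (median 0.07), and 39 had a negative and 4 a positive difference. Opposite movement, down with luteolin and up with siVRK1, held for 18 of the G1/S and 21 of the G2/M genes.

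KIF20A, a kinesin of cytokinesis, was the clearest case. It stood at 18.7, 18.2 and 18.9 TPM with siCont and at 47.8, 50.3 and 51.7 TPM with siVRK1 (1.38 ± 0.06). With DMSO it stood at 42.7, 37.5 and 39.0 TPM and with luteolin at 15.1, 14.3 and 16 TPM (−1.34 ± 0.06, difference −2.71 ± 0.09, adjusted p = 6.32e-10). PRC1, a microtubule-bundling protein of cytokinesis, went from 35.5, 32.9 and 35.2 TPM to 112, 114 and 113 TPM with siVRK1 and from 114, 112 and 110 TPM to 80.0, 87.9 and 83.5 TPM with luteolin. The thymidylate synthase TYMS rose with siVRK1 (153, 144 and 143 TPM to 422, 424 and 447 TPM) and fell slightly with luteolin (−0.20 ± 0.07, adjusted p = 0.0273), where luteolin library 3 lay within the DMSO range. This fall lost its call without DMSO library 2 (−0.17) or 3 (−0.21), without luteolin library 1 (−0.21) or 2 (−0.11), and under quantile normalization (−0.07). It was also lost with no filter (adjusted p = 0.0615), without the mitochondrial mRNAs (−0.16) and in a fit of the 6 libraries alone (adjusted p = 0.0673). In these 3 genes the treated siRNA libraries were near or above the DMSO level and siCont lay far below it.

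The proliferation antigen MKI67 (−0.89 ± 0.08 with luteolin, 0.83 ± 0.08 with siVRK1) and the mitotic kinase PLK1 (−1.17 ± 0.05 and 0.26 ± 0.05) also moved in opposite directions. The activators E2F1 and CCNE2 rose with siVRK1 only (1.31 ± 0.07 and 1.05 ± 0.08), with luteolin effects of −0.01 ± 0.07 and −0.16 ± 0.08. A smaller set of 11 G2/M and 4 G1/S genes fell with both. Cyclin A2 (CCNA2) was one, at −0.70 ± 0.05 with luteolin and −1.15 ± 0.05 with siVRK1. CDK6, a G1 kinase, was another, and fell far more with siVRK1 (30.7 to 7.31 TPM, −1.93 ± 0.07) than with luteolin (14.9 to 12.1 TPM, −0.28 ± 0.07).

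In the promoters of these lists, TTTGAA, a form of the CHR element of late cell cycle genes, was present on either strand in 22 of 41 G2/M members with a promoter (53.7%), against 13.6% of all promoters and 8.35% of those of tested genes. The E2F words TTTGGCGC, TTTCCCGC, TTTCGCGC and TTTGCCGC, none of which contains TTTGAA, were present in 17 of 43 G1/S members (39.5%), against 2.79% and 4.62%. The promoters shown belong to the members with a match and the most negative difference.
PRC1: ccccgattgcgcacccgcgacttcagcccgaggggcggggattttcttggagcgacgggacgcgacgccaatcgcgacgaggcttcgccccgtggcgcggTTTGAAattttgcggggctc
MKI67: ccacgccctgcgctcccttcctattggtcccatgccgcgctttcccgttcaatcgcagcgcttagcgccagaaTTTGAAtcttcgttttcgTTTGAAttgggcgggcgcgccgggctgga
TYMS: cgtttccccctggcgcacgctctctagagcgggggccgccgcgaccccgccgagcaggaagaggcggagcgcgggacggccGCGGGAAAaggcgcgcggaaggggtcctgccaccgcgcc
They lie at chr15:90994536-90994655 (PRC1, minus strand), chr10:128126424-128126543 (MKI67, minus strand, 2 matches) and chr18:657533-657652 (TYMS, plus strand, matched on the opposite strand).

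Nuclear envelope and chromatin lists also held more negative than positive differences. Of 25 tested VRK1 substrates and nuclear envelope genes, luteolin raised 1 and lowered 11 (median −0.15), and siVRK1 raised 12 and lowered 5 (median 0.14), with 13 negative and 2 positive differences. The lamin LMNB1 fell with luteolin (−0.88 ± 0.05) and rose with siVRK1 (0.38 ± 0.05), as did the lamin B receptor LBR (−0.65 ± 0.06 and 0.61 ± 0.06) and LMNB2 (−0.22 ± 0.03 and 0.89 ± 0.03). BANF1, the envelope substrate of VRK1, moved in the same pattern with small effects (−0.32 ± 0.04 and 0.15 ± 0.04). The A-type lamin LMNA instead fell with both (−0.63 ± 0.04 and −0.37 ± 0.04). Of 21 Polycomb, DNA methylation and HMG genes, luteolin lowered 9 and raised 2, siVRK1 raised 8 and lowered 6, and 13 differences were negative and 1 positive. The siVRK1 falls lie near the share of all genes (28%). The maintenance methyltransferase DNMT1 went from 34.9 to 103 TPM with siVRK1 (1.54 ± 0.07), and from 103 to 89.8 TPM with luteolin (−0.19 ± 0.07), a fall that lost its call without DMSO library 1 (−0.14) or 3 (−0.19), without luteolin library 1 (−0.20) or 2 (−0.14), and under quantile normalization (−0.12). It was also lost with no filter (adjusted p = 0.0584), without the mitochondrial mRNAs (−0.14) and with all 24 libraries in the fit (adjusted p = 0.089). HMGB2, which bends DNA, rose with siVRK1 (1.01 ± 0.04) and fell with luteolin (−0.58 ± 0.04).

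Most heat shock genes fell with both treatments. Of 20 tested members, luteolin lowered 17 and raised 1 (median −0.53), and siVRK1 lowered 18 and raised 1 (median −0.38). Shared falls numbered 15, and the differences were split, with 4 positive and 8 negative. HSP90AA1, the inducible cytosolic HSP90, went from 837, 838 and 882 TPM to 472, 484 and 459 TPM with siVRK1 (−0.85 ± 0.03), and from 1392, 1493 and 1490 TPM to 812, 799 and 794 TPM with luteolin (−0.86 ± 0.03). The drops differed by −0.01 ± 0.05 (95% interval −0.12 to 0.10) although the DMSO level was well above siCont. The co-chaperone DNAJA1 also fell with both (−0.54 ± 0.04 with luteolin and −0.60 ± 0.04 with siVRK1), while HSPA1A, an inducible HSP70, fell more with siVRK1 (−1.06 ± 0.07) than with luteolin (−0.50 ± 0.07). Reads of HSPA1A cannot be told cleanly from those of its near-identical neighbour HSPA1B. HSPB1 was the exception in the other direction, down with luteolin (−1.28 ± 0.04) and slightly up with siVRK1 (0.16 ± 0.04).

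The heat shock element core GAANNTTC was present in 6 of 18 members with a promoter (33.3%), against 5.85% of all promoters and 3.98% of those of tested genes. The members with a match and the largest fall common to both treatments are shown.
DNAJA1: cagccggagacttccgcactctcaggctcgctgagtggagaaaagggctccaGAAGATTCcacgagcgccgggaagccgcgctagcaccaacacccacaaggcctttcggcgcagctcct
HSPA1A: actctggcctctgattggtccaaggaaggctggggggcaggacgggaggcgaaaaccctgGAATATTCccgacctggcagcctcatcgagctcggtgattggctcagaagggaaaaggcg
They lie at chr9:33025023-33025142 and chr6:31815377-31815496, both on the plus strand.

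Chaperones of the endoplasmic reticulum and cholesterol genes also fell on balance with both treatments. Of 22 ER chaperone and unfolded protein genes, luteolin lowered 12 and raised 5, and siVRK1 lowered 14 and raised 3, with 9 shared falls. The luteolin rises lie near the share of all genes (22.6%). The lectin chaperone CALR fell with both (−0.64 ± 0.04 and −0.42 ± 0.04), as did HSPA5, the ER HSP70 (−0.27 ± 0.07 and −0.56 ± 0.07), though its luteolin call was lost under quantile normalization (−0.12). HERPUD1, an ER-degradation factor, instead rose with luteolin (1.46 ± 0.20) and fell with siVRK1 (−0.86 ± 0.20), and XBP1 did the same (1.38 ± 0.07 and −0.61 ± 0.07). Of 24 genes of cholesterol synthesis and uptake, luteolin lowered 18 and raised 0 (median −0.41), and siVRK1 lowered 12 and raised 4 (median −0.24), with 9 shared falls. INSIG1, a sterol-sensing brake, fell with both (−1.24 ± 0.06 and −1.11 ± 0.06). The oxidases MSMO1 and SC5D set the arms apart: MSMO1 fell with luteolin and rose with siVRK1 (−0.31 ± 0.08 and 0.54 ± 0.08), and SC5D fell with siVRK1 only (−1.79 ± 0.10).

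**Figure D4:**
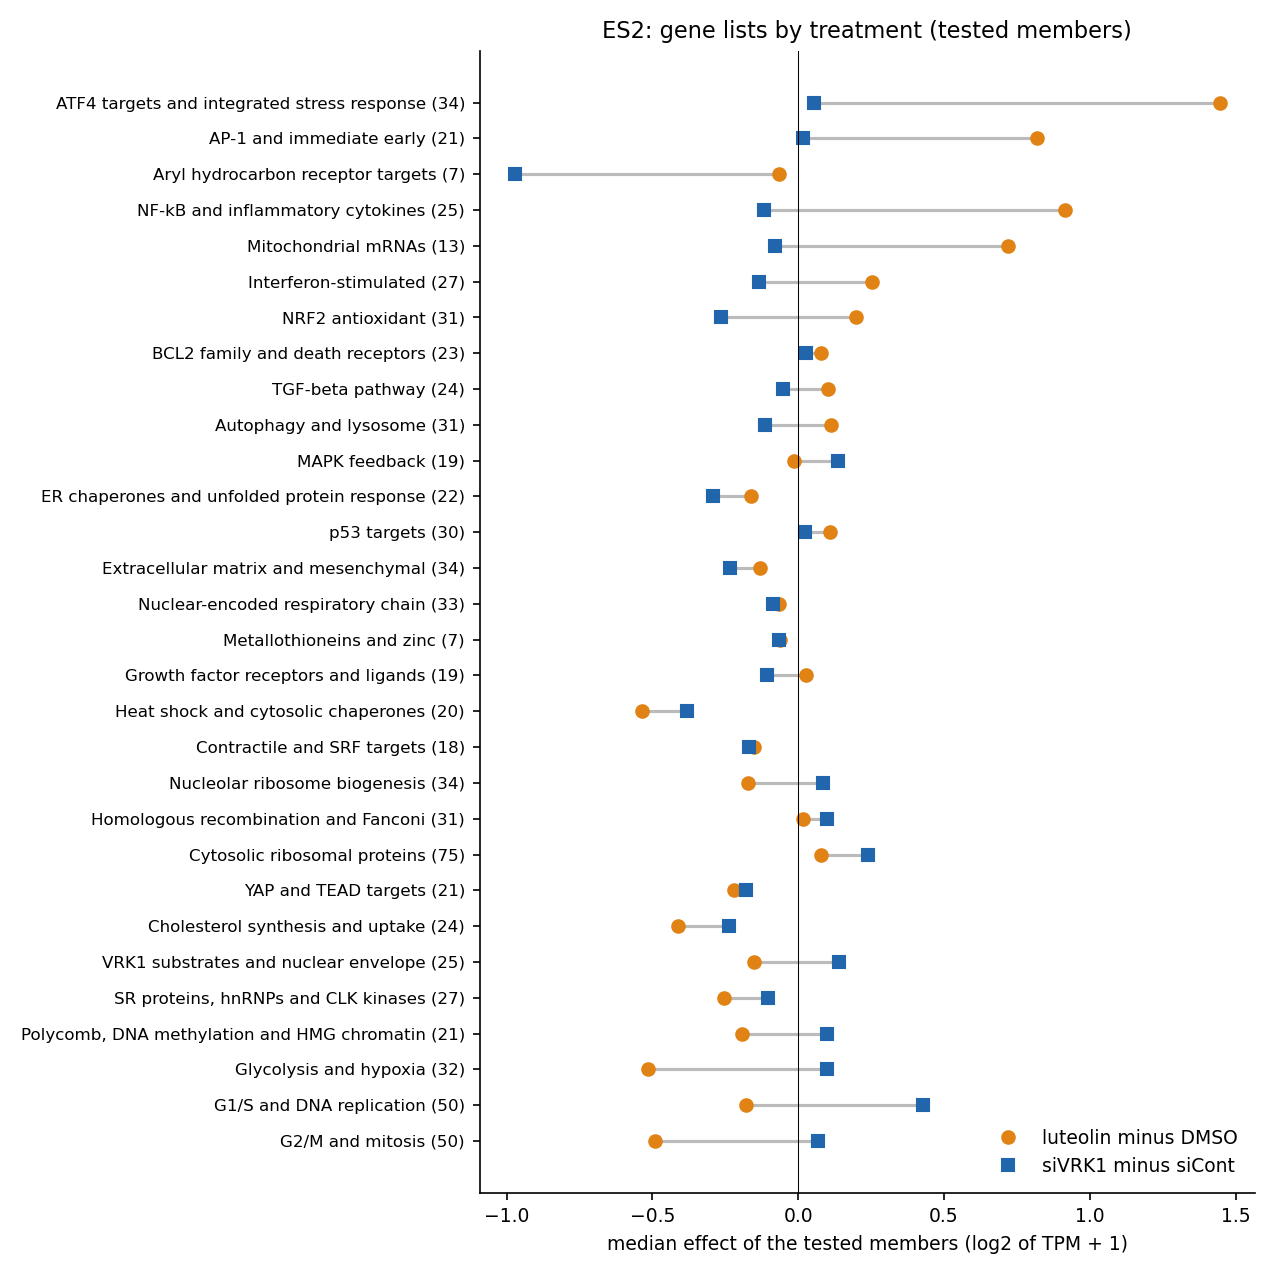
Median effect (x axis, log2 of TPM + 1) of luteolin (circles) and of siVRK1 (squares) over the tested members of each of 30 gene lists in ES2, ordered by the median difference, with the number tested in brackets. ATF4, AP-1 and NF-kB lists lie far to the right with luteolin only, cell cycle and glycolysis lists lie left of 0 with luteolin and right of it with siVRK1, and the heat shock and cholesterol lists lie left of 0 with both.

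Early response and inflammatory genes rose mainly with luteolin. Of 21 tested AP-1 and immediate early genes, luteolin raised 18 and lowered 0 (median 0.82), and siVRK1 raised 7 and lowered 6 (median 0.02), with 16 positive differences and 1 negative. The siVRK1 falls lie near the share of all genes (28%). FOS stood at 2.11, 2.13 and 2.45 TPM with DMSO and at 34.5, 14.7 and 49.4 TPM with luteolin (3.24 ± 0.32), and at 1.03 to 1.79 TPM with siCont and 0.854 to 1.46 TPM with siVRK1. The luteolin libraries spread widely but none came near the DMSO range. JUNB rose with luteolin (2.04 ± 0.20) and fell with siVRK1 (−0.67 ± 0.20), whereas JUN, a known VRK1 substrate, rose with both (0.48 and 0.26). Of 19 MAPK feedback genes, 8 rose and 4 fell with luteolin and 6 rose and 5 fell with siVRK1. The luteolin falls and both siVRK1 counts lie near the shares of all genes (25.8%, 26.8% and 28%). The ERK phosphatase DUSP6 differed most (1.27 ± 0.12 with luteolin, −0.62 ± 0.12 with siVRK1).

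Of 25 NF-kB and cytokine genes, luteolin raised 19 and lowered 1 (median 0.91), and siVRK1 raised 4 and lowered 10 (median −0.12), with 18 positive and 2 negative differences. The subunit RELB moved in opposite directions (1.16 ± 0.17 and −0.87 ± 0.17), as did BIRC3, an inhibitor of apoptosis (1.32 ± 0.25 and −1.45 ± 0.25). BIRC3 was at 7.51 TPM with siCont, 2.17 TPM with siVRK1, 0.657 TPM with DMSO and 3.37 TPM with luteolin, so its controls differed widely. The feedback regulator NFKBIZ rose with luteolin only (2.50 ± 0.26, against −0.13 ± 0.26). IL11, described above, was one of the 2 negative differences. Of 27 interferon-stimulated genes, luteolin raised 10 and lowered 2, and siVRK1 raised 5 and lowered 10, with 13 positive and 3 negative differences. PSMB9, an immunoproteasome subunit, rose with luteolin (0.62 ± 0.13) and fell with siVRK1 (−1.60 ± 0.13).

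Antioxidant and xenobiotic genes pointed different ways. Of 31 NRF2-linked genes, luteolin raised 15 and lowered 6 (median 0.20), and siVRK1 raised 5 and lowered 19 (median −0.26), with 19 positive and 4 negative differences. The quinone reductase NQO1 went from 162, 165 and 152 TPM to 213, 209 and 231 TPM with luteolin (0.44 ± 0.04) and from 245, 242 and 240 TPM to 124, 122 and 123 TPM with siVRK1 (−0.97 ± 0.04). The groups did not overlap in either pair. The cystine transporter SLC7A11 rose with luteolin (1.98 ± 0.08) and fell with siVRK1 (−0.26 ± 0.08), a call lost without siCont library 2 (−0.23) or siVRK1 library 1 or 2 (−0.24 and −0.23). Heme oxygenase HMOX1 went against the list: it rose with both and more with siVRK1 (1.90 ± 0.07, from 14.9 to 58.2 TPM) than with luteolin (0.47 ± 0.07). Flavones are known ligands of the aryl hydrocarbon receptor. Of 7 tested genes of that list siVRK1 lowered all 7 (median −0.97) and luteolin raised 2 and lowered 1. The receptor AHR itself rose with luteolin (0.86 ± 0.20) and fell with siVRK1 (−1.29 ± 0.20).

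Metallothionein MT2A, which binds zinc and copper, stood at 7110, 7880 and 7338 TPM with siCont and at 858, 883 and 712 TPM with siVRK1 (−3.19 ± 0.07). With luteolin it fell from 5489 to 4226 TPM (−0.38 ± 0.07), so its fall is formally shared but differs by 2.81 ± 0.10. Metallothionein genes are near-identical and kallisto divides reads between them, so single-gene values are uncertain. The list of 7 tested metallothionein and zinc genes had 2 rises and 2 falls with luteolin and 1 rise and 3 falls with siVRK1. Both luteolin counts lie near the shares of all genes (22.6% and 25.8%).

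Glycolysis genes and mitochondrial mRNAs differed between the treatments. Of 32 glycolysis and hypoxia genes, luteolin lowered 24 and raised 6 (median −0.51), and siVRK1 raised 15 and lowered 11 (median 0.10), with 23 negative and 4 positive differences. The phosphofructokinase regulator PFKFB4 moved in opposite directions (−1.10 ± 0.14 and 0.64 ± 0.14), as did the hypoxia marker CA9 (−1.29 ± 0.30 and 2.0 ± 0.30), while PGAM1 fell with both (−0.86 ± 0.03 and −0.73 ± 0.03). For CA9 the controls lay far apart, at 0.597 TPM with siCont and 12.6 TPM with DMSO. The treated levels were close, at 5.30 TPM with siVRK1 and 4.73 TPM with luteolin. The growth factor VEGFA rose with luteolin (1.23 ± 0.05) and its siRNA effect of 0.12 ± 0.05 did not pass the test. Of the 13 mitochondrial mRNAs, luteolin raised 11 and lowered 0 (median 0.72), and siVRK1 raised 2 and lowered 3. MT-ND4, a complex I subunit, went from 1484, 983 and 1221 TPM with DMSO to 2775, 4081 and 2793 TPM with luteolin, with library 2 highest. Of 33 nuclear-encoded respiratory chain genes, luteolin raised 5 and lowered 11 and siVRK1 raised 4 and lowered 13, with 3 shared falls. Their differences, 9 positive and 7 negative, lie near the shares of all genes (25.8% and 26%) and do not set the list apart.

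Ribosomal protein genes rose on balance with both. Of 75, luteolin raised 33 and lowered 9 (median 0.08) and siVRK1 raised 60 and lowered 4 (median 0.24), with 29 shared rises and 37 negative differences against 7 positive. RPL5 went against the list, at 2393, 2369 and 2393 TPM with siCont and 1011, 1021 and 1016 TPM with siVRK1 (−1.23 ± 0.03), against 0.05 ± 0.03 with luteolin. Of 34 nucleolar ribosome biogenesis genes, luteolin raised 5 and lowered 16 and siVRK1 raised 14 and lowered 8. The nucleolar methyltransferase FBL followed that split (−0.42 ± 0.05 and 0.48 ± 0.05), while MYC rose with luteolin (0.82 ± 0.07). Of 27 SR protein, hnRNP and CLK genes, luteolin raised 3 and lowered 17 and siVRK1 raised 6 and lowered 8. Both siVRK1 counts lie near the shares of all genes (26.8% and 28%). The splicing factor SRSF1 fell with luteolin (−1.01 ± 0.05) and rose with siVRK1 (0.15 ± 0.05), a rise that lost its call without siCont library 1 (0.11) and with all 24 libraries in the fit (adjusted p = 0.135). The 3 rises with luteolin were the kinases CLK1, CLK3 and CLK4, which phosphorylate SR proteins, and none of them passed the test with siVRK1.

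Matrix, contractile and signalling lists held shared, opposite and treatment-specific members. Of 34 extracellular matrix and mesenchymal genes, luteolin raised 10 and lowered 17 and siVRK1 raised 11 and lowered 20, with 11 shared falls. COL1A1, a chain of type I collagen, stood at 128, 106 and 112 TPM with DMSO and 11.2, 11.2 and 16.6 TPM with luteolin (−3.07 ± 0.13), against 80.6, 94.2 and 78.9 TPM with siCont and 59.7, 51.8 and 48.7 TPM with siVRK1 (−0.65 ± 0.13). Fibroblast markers, which include COL1A1, summed to 114 to 134 TPM with DMSO and 18.2 to 23.1 TPM with luteolin, with 3 of 9 at 1 TPM or more in every group and DCN at 0.22 to 0.987 TPM by group mean, with a highest library of 1.97 TPM. COL6A3, of type VI collagen, was the reverse of COL1A1, at −0.34 ± 0.09 with luteolin and −3.22 ± 0.09 with siVRK1. It went from 64.6 to 6.05 TPM with siVRK1, with DMSO at 15.2 TPM. The metalloproteinase inhibitor TIMP3 moved in opposite directions (−1.32 ± 0.06 and 0.58 ± 0.06).

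Of 18 contractile and SRF genes, 6 rose and 10 fell with luteolin and 5 rose and 10 fell with siVRK1, with 7 shared falls. The siVRK1 rises lie near the share of all genes (26.8%). Of 21 YAP and TEAD genes, 3 rose and 12 fell with luteolin and 8 rose and 10 fell with siVRK1, with 6 shared falls. CCN2, a matricellular YAP target, fell with both (−0.71 ± 0.12 and −1.03 ± 0.12), while its relative CCN1 fell with siVRK1 only (−1.06 ± 0.09, against 0.21 ± 0.09). Of 24 TGF-beta pathway genes, 8 rose and 5 fell with luteolin and 6 rose and 7 fell with siVRK1. The falls with luteolin and both siVRK1 counts lie near the shares of all genes (25.8%, 26.8% and 28%), so they describe no movement of the list. The target ID1 rose with luteolin (1.33 ± 0.11) and fell with siVRK1 (−0.98 ± 0.11), and the inhibitor SMAD7 fell with siVRK1 (−2.02 ± 0.23) with a luteolin effect of 0.56 ± 0.23 (adjusted p = 0.0556). Of 19 growth factor genes, 6 rose and 4 fell with luteolin and 6 rose and 8 fell with siVRK1. The luteolin falls and siVRK1 rises lie near the shares of all genes (25.8% and 26.8%). MET, the HGF receptor, rose slightly with both (0.21 ± 0.05 and 0.57 ± 0.05), the luteolin call being lost when all 24 libraries shared the fit (adjusted p = 0.194).

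Death, repair and p53 genes showed smaller lists of calls. Of 30 p53 targets, luteolin raised 10 and lowered 3 and siVRK1 raised 7 and lowered 7, and CDKN1A was 1 of 2 shared rises. PMAIP1, which encodes the BH3-only protein NOXA, rose with luteolin (1.62 ± 0.09) and fell with siVRK1 (−0.41 ± 0.09). Of 23 BCL2 family and death receptor genes, luteolin raised 9 and lowered 4 and siVRK1 raised 5 and lowered 8. The death receptor TNFRSF10B rose with luteolin (0.45 ± 0.08) and fell with siVRK1 (−0.81 ± 0.08), and the decoy receptor TNFRSF10D did the reverse (−0.56 ± 0.05 and 1.03 ± 0.05). Of 31 homologous recombination and Fanconi genes, luteolin raised 8 and lowered 4 and siVRK1 raised 11 and lowered 3. The translocase RAD54L rose with both (0.50 ± 0.14 and 0.76 ± 0.14). Of 31 autophagy and lysosome genes, luteolin raised 15 and lowered 4 and siVRK1 raised 7 and lowered 11. The autophagy receptor SQSTM1 rose with luteolin (1.03 ± 0.09) and fell with siVRK1 (−0.87 ± 0.09). Over all genes, luteolin raised 22.6% and lowered 25.8%, and siVRK1 raised 26.8% and lowered 28%. Both siVRK1 counts of the p53 list lie near these shares. So do the siVRK1 rises of the BCL2 and autophagy lists and the luteolin rises of the recombination list. Such counts do not set a list apart.

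Genes that moved with 1 treatment alone were numerous in either arm. Luteolin alone raised 826 and lowered 736 genes, where alone means not called with siVRK1. The 95% interval of the siVRK1 effect lay within ±0.5 for 620 and 670 of these. CDH5, the cadherin of endothelial junctions, fell from 35.6, 39.3 and 38.5 TPM to 8.91, 9.15 and 8.52 TPM with luteolin (−1.98 ± 0.05) and stood at 29.9 to 31.9 TPM in all 6 siRNA libraries. The carboxypeptidase CPA4 (798 to 258 TPM, −1.63 ± 0.04) also fell with luteolin alone. The membrane protein LY6K fell with luteolin (248 to 100 TPM, −1.30 ± 0.05). Its siVRK1 effect of −0.13 ± 0.05 just missed the threshold (adjusted p = 0.058 in limma's test). Endothelial markers summed to 174 to 186 TPM with DMSO and 101 to 111 TPM with luteolin, nearly all of it TIE1 and CDH5, and 2 or 3 of the 8 reached 1 TPM in a group, with PECAM1 at 0.290 to 1.12 TPM. On the rising side stood GDF15, FOS and ATF3, given above, and the protease PAPPA2 (0.114 to 9.04 TPM, 3.17 ± 0.23).

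The siRNA alone raised 1113 and lowered 1152 genes. The macrophage marker CD68 rose from 36.7 to 75.4 TPM (1.02 ± 0.08), but leukocyte markers did not rise as a set. Of 2 tested, siVRK1 raised 1 and lowered 1. By group mean LYZ went down from 1.31 to 0.487 TPM, CSF1R from 0.746 to 0.243 TPM and PTPRC from 0.246 to 0.158 TPM. In every library of a group, 5 or 6 of the 11 leukocyte markers were at 0. ESM1, a secreted proteoglycan, stood at 52.2, 55.0 and 60.1 TPM with siCont, at 405, 422 and 406 TPM with siVRK1 (2.86 ± 0.06) and at 293 to 328 TPM in the 6 DMSO and luteolin libraries. MXD3, a MYC antagonist, went from 2.86 to 17.5 TPM (2.26 ± 0.14) with DMSO at 13.6 TPM. VPS4B, an ATPase of the ESCRT machinery, fell from 45.0, 42.5 and 47.8 TPM to 8.79, 6.31 and 5.84 TPM (−2.55 ± 0.11), with 27.3 to 30.1 TPM in the DMSO and luteolin libraries. The copper-metabolism-domain gene COMMD2 (−2.55 ± 0.12) and the receptor gene KLRC2 (−2.88 ± 0.18) fell as well. KLRC2 stood at 13.9 TPM with siCont, 1.03 TPM with siVRK1, 0.321 TPM with DMSO and 0.590 TPM with luteolin. At that DMSO level a fall with luteolin could hardly be seen.

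For many of these genes the 2 control groups differed, which bears on every siVRK1 value because siCont enters all of them. CHRDL1, a BMP antagonist with one of the most negative differences (−3.95 ± 0.13), was at 2.32 TPM with siCont, 36.1 TPM with siVRK1, 26.5 TPM with DMSO and 19.0 TPM with luteolin. CCDC80, a matrix protein (−3.78 ± 0.16), was at 9.11, 57.3, 87.9 and 36.7 TPM in the same order. The angiopoietin-like ANGPTL4, with the second most positive difference of the named genes (4.34 ± 0.26), was at 10.7 TPM with siCont, 1.16 TPM with siVRK1, 1.02 TPM with DMSO and 6.73 TPM with luteolin. In these genes siVRK1 and DMSO lay close together and siCont apart. The reason was not tested. VRK1 itself, at 64.6 and 60.3 TPM in the 2 controls, HSPA1A at 56.1 and 56.5 TPM and ATF4 at 294 and 276 TPM were close in both controls.

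The sequence word GATAATA was named by an earlier search of these data over falls with siVRK1, so its share among such falls is a description. It was present in the longest annotated 3′ UTR of 11.1% of the 11714 tested genes that could be searched. Among genes lowered by siVRK1 alone the share was 21.6% (239 of 1107), among genes lowered by luteolin alone 9.97% (71 of 712), among shared falls 16.6% (199 of 1202), and among genes that rose with luteolin and fell with siVRK1 16.2% (106 of 653). For falls of at least 2-fold with siVRK1 it was 37.0% (161 of 435), among them MT2A, CDK6, RPL5 and VPS4B, and for rises of at least 2-fold 7.67% (24 of 313). For falls of at least 2-fold with luteolin it was 16.2% (21 of 130) and for such rises 8.43% (22 of 261). The 3′ UTR of VRK1 did not hold it. Without the genes that hold it, 827 shared rises, 1037 shared falls and 1411 opposite genes remained of 865, 1236 and 1579.

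The difference between the treatments was then compared with that in A2780, with all 24 libraries and 14328 genes in 1 fit. The luteolin effect minus the siVRK1 effect lay higher in ES2 than in A2780 in 1673 genes (11.7%) and lower in 4708 (32.9%). Under median-of-ratios scaling these counts became 3249 and 2761, and with quantile normalization 2857 and 2727, so the lean to negative values rests on the scale. The median of all genes was −0.27 as deposited, and list values are best read against it. The ATF4 list stood out on the positive side: 28 of 34 members were more positive in ES2 and 1 more negative (median 1.03). Its median difference was 1.53 in ES2 and 0.30 in A2780, where the luteolin effect on ASNS (−0.09 ± 0.06) did not pass the test and ASNS measured 240 TPM (DMSO) and 225 TPM (luteolin), both above the ES2 luteolin level. The p53 list stood out on the negative side, with 29 of 35 members more negative in ES2 and 1 more positive (median −1.18). Its median luteolin effect in A2780 was 1.96. CDKN1A went there from 49.5 to 883 TPM with luteolin and from 173 to 355 TPM with siVRK1, and its difference was 3.09 ± 0.18, against −0.02 ± 0.18 in ES2 in the same fit.

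Cell cycle lists were more negative in ES2 as well: 31 of 51 G1/S genes (3 more positive) and 25 of 50 G2/M genes (3 more positive). Over all genes 32.9% were more negative and 11.7% more positive. The list medians were −0.47 and −0.46, against −0.27 for all genes. List counts between the lines are given on the deposited scale only, and the lean of all genes rests on that scale. In A2780 the medians of G2/M genes were −0.77 with luteolin and −0.55 with siVRK1, the same sign, whereas in ES2 they parted. KIF20A showed this, with effects of −0.39 and −0.15 in A2780 and a difference between lines of −2.48 ± 0.23 (adjusted p = 8.26e-08). In the heat shock list 4 of 20 members were more positive and 7 more negative in ES2, the latter near the share of all genes (32.9%). Its median difference was −0.08 in ES2 and −0.10 in A2780. Across genes the luteolin and siVRK1 effects correlated at 0.19 in A2780 and 0.07 in ES2, a description over 14328 genes that are not independent.

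**Figure D5:**
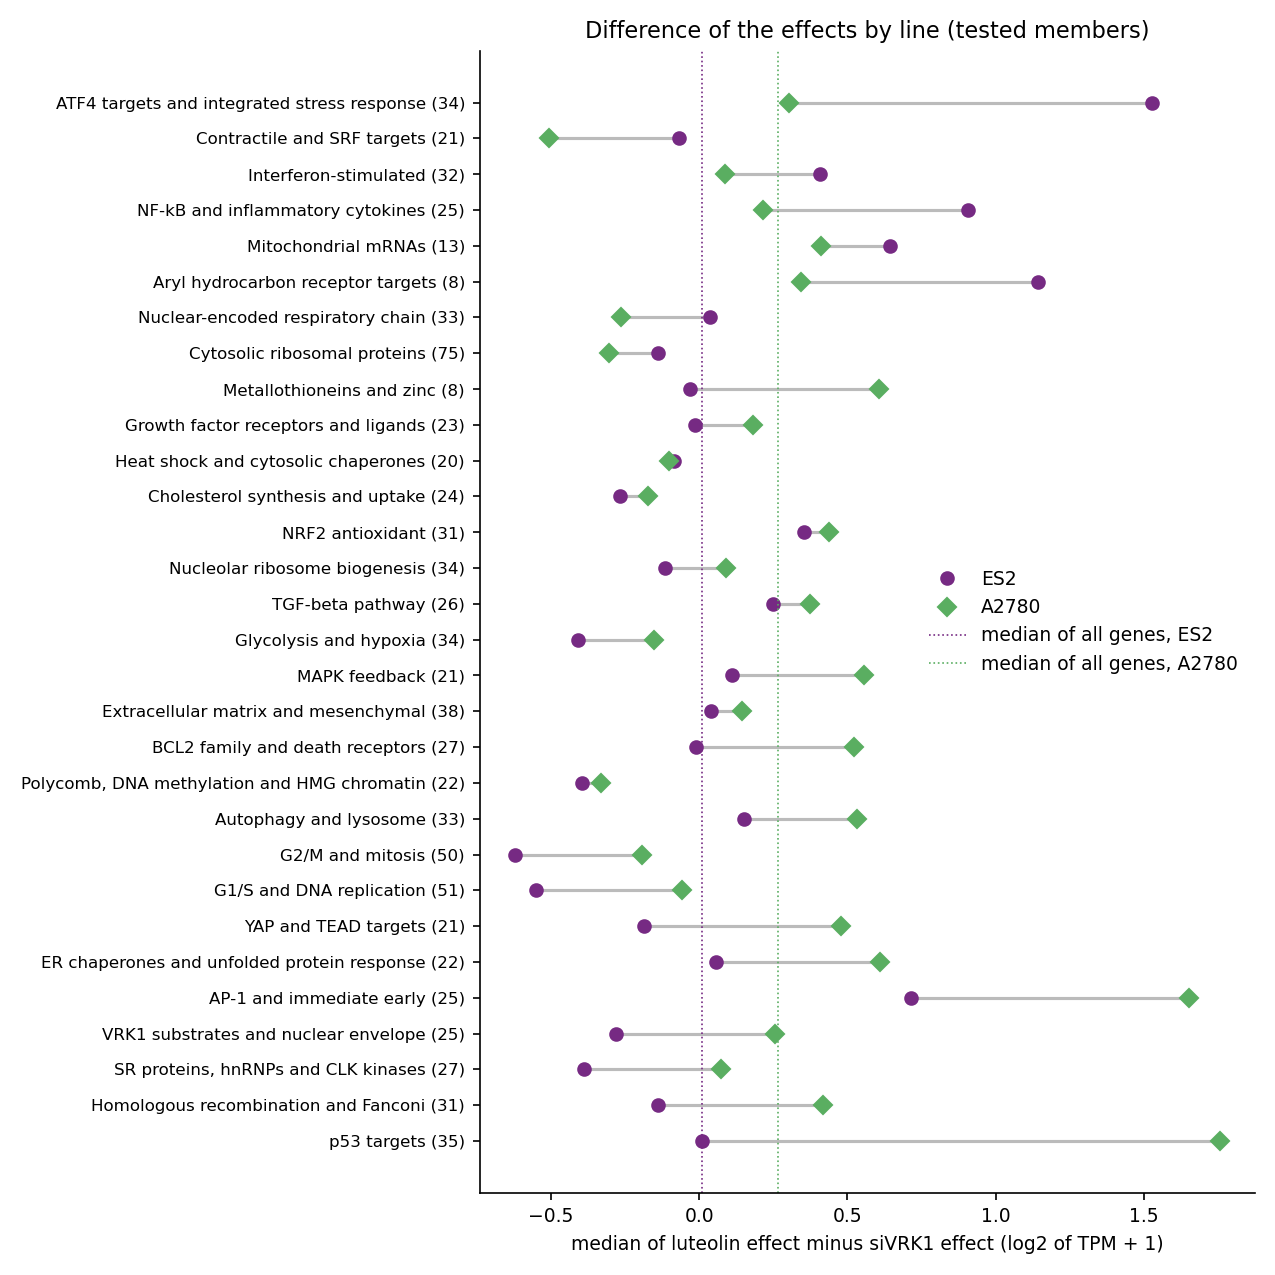
Median over tested list members of the luteolin effect minus the siVRK1 effect (x axis, log2 of TPM + 1) in ES2 (circles) and A2780 (diamonds), ordered by the median of the difference between lines, with dotted lines at the median of all genes in each line. The ATF4 list lies at 1.53 in ES2 and 0.30 in A2780, and the p53 list at 0.01 and 1.75.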

How the data were processed

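RNA of 12 ES2 libraries (4 groups of 3) and, for the comparison of lines, 12 A2780 libraries was analysed. The authors deposited TPM per transcript and library. Per the submitters' processing notes, FastQC, kallisto and hg19 were used, without versions or the transcript set in the sources used here. Titles gave the groups: within a line, the cell line label counts up and the treatment label runs on to siVRK2 and siVRK3 where the titles keep siVRK1. Because 2 siVRK1 columns of ES2 have identical names, they are listed first among the siVRK1 values, as libraries 1 and 2 in table order. No per-sample column was left out.

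The table holds 193845 lines for 191887 transcripts, and the 1958 repeated lines are identical and were used once. TPM was summed over the transcripts of a symbol (28907 symbols). Transcripts without a symbol (9542) or with 2 symbols (19) were left out, 0.514% to 0.709% of the TPM of an ES2 library. Depth is unknown, so no counting interval could be given.

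Two-sided tests came from limma-trend (limma 3.58.1, R 4.3.3) on log2 of TPM + 1, a scale that understates changes of low genes. P-values were adjusted by Benjamini-Hochberg over the genes with at least 1 TPM in at least 3 libraries and a threshold of 0.05. The steps were tested on simulated data. Shared and opposite genes passed with both treatments. Specific genes passed with 1 treatment and in the difference. Promoters came from RefSeq (GRCh38.p14, first start listed per symbol), 3′ UTRs from GENCODE 29.

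Named genes were the largest differences, the largest effects of each class and, per list, the most positive and negative differences and shared members, with the VRK genes. ATF4, E2F1, CCNE2, PLK1, HSPA5, DNAJA1, BANF1 and the keratin, endothelial, leukocyte and lineage markers were named after their values were seen. The members, the 36 gene lists and the rules were chosen with earlier results of these data known. Pseudogenes, T-cell receptor segments and near-identical copies are uncertain because kallisto divides reads between them. Overlapping genes are uncertain because strand use is not given. The alternatives tried were other pseudocounts (0.1 and 5), other filters (none and 5 TPM), 2 scalings, removal of the 13 mitochondrial mRNAs, other sets of libraries, a robust prior, a replicate block and leaving out each library. Removal of genes with the word GATAATA was added after the data had been seen. Some genes are not reported here.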

Additional observations from a re-analysis of the deposited data

Results flagged for a closer look

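By limma's test, the luteolin effect minus the siVRK1 effect was higher in ES2 than in A2780 in 1673 genes and lower in 4708. These counts depend on the scale, as given below. The 10 genes listed here are only the 5 most positive and 5 most negative by the rule for named genes. On the log2 scale of TPM + 1, ES2 was higher than A2780 by 4.43 for PSMB9, an immunoproteasome subunit whose own differences were 2.22 in ES2 and −2.21 in A2780. It was higher by 3.86 for ANGPTL4 (4.34 and 0.48), by 3.57 for the lysosomal reductase IFI30 (2.16 and −1.41), by 3.35 for the peptide hormone gene SPX (2.63 and −0.72) and by 3.33 for PAPPA2 (3.35 and 0.02), which was hardly detected in A2780.

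On the other side the value was −4.19 for the proton-sensing receptor GPR4 (−3.52 in ES2 and 0.67 in A2780), −3.75 for CYFIP2 (−2.02 and 1.73) and −3.69 for CCDC80 (−3.78 and −0.09). It was −4.64 for the T-cell receptor segment TRBV12-4 and −4.23 for the globin pseudogene HBBP1. Both are listed at 0 in all 12 A2780 libraries and have near-identical copies, so their values are uncertain.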

How the results depend on the processing

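All 14 ES2 counts (called with each treatment, in the difference and in each class) stayed within 1.5 times under the 13 alternatives that kept all replicates and with each of the 12 libraries left out. Leaving out a library gave 2903 to 3385 higher and 2983 to 3281 lower differences, 2259 to 2929 rises and 2820 to 3203 falls with luteolin, and 3011 to 3429 rises and 3167 to 3605 falls with siVRK1. Shared rises ranged over 726 to 931, shared falls over 1114 to 1262, and opposite genes over 590 to 798 and 764 to 885. The difference between ES2 and A2780 changed its split with the scale: 1673 higher and 4708 lower as deposited, 3249 and 2761 after median-of-ratios scaling, 2857 and 2727 after quantile normalization. Of 186 list counts, 153 stayed within 1.5 times in every alternative. Of 290 values of named genes, 274 kept direction and call, 15 lost the call somewhere, and 1 reversed: the luteolin effect on VRK1, never called, was −0.0141 without DMSO library 1 and between −0.0518 (without luteolin library 3) and 0.1143 (without luteolin library 2) over the libraries left out. Same-numbered libraries did not visibly deviate together (correlations −0.0633 to 0.0913). A pairing with a weak shared effect could look the same, so this does not show that the libraries are unpaired. With the replicate block the differences were 3208 higher and 3196 lower, with the same-named columns exchanged 3170 and 3193, and 1641 and 4676 between the lines. The cause of these changes was not tested. TPM keeps no depth, so low genes carry no counting error here.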
